A study of Mus musculus with 8 samples.

Results

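The Tex (testis expressed) and Spata (spermatogenesis associated) genes share a naming rule rather than a protein family: most received their symbols because their transcripts were found in testis. A gene was taken when a probe set carried exactly 1 symbol made of Tex or Spata followed by a digit, and each gene was represented by its probe set with the highest mean log2 intensity over all 8 arrays. The rule found 57 genes, 35 Tex and 22 Spata, among 18194 genes on the array. Of the 57, 55 passed the filter on low values (log2 4 or above in at least 2 arrays) and were among the 13802 genes tested, and Tex16 and Tex26 did not pass. By their known place in sperm formation the 57 were set out as 10 early genes, 33 late genes and 13 broad genes listed as used in many tissues. Tex24 was left without a role. The roles, like the other gene lists used below, were chosen with earlier results of these data known.

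Sperm form from spermatogonia, which divide by mitosis, enter meiosis as spermatocytes, and leave it as haploid spermatids that build the acrosome, condense their chromatin and grow a flagellum. The early genes were listed as acting up to meiosis, although Tex101 also serves sperm protein processing and Tex13a changed as the late genes did. Tex12 is a part of the synaptonemal complex, and Tex14 keeps the bridges between sister germ cells open. Tex15 serves meiotic recombination and transposon silencing, and Tex19.1 restrains transposons. The late genes are switched on in spermatocytes and spermatids, and several encode parts of the sperm head, midpiece or tail. Dmrt1 is a transcription factor of Sertoli cells, the somatic cells that nurse the germ cells, and of the germ cells themselves.

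RNA of whole testes of mice at postnatal day 28, on a mixed C57BL6/6J and 129 background, was hybridised to 1 array each. All 8 animals carried Dmrt1 flox/flox. The 2 control arrays had no Cre, 2 arrays were labelled Dhh-cre (here Dhh-Cre), and 4 were labelled SF1-cre (here Sf1-Cre). The design text calls the Sf1 (Nr5a1) and Dhh promoters specific to Sertoli cells. The labels call the arrays of a group biological replicates. In whole testis, fewer cells of a type and less RNA per cell cannot be told apart.

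Dmrt1 itself, the floxed gene, gave intensities of 361 and 433 without Cre and of 137, 237, 198 and 185 with Sf1-Cre, all 4 below control. It gave 1377 and 979 in the pair labelled Dhh-Cre, both above control, so its signal went against that label. Where the probe set lies relative to the deleted part is unknown here. Those 2 arrays are therefore called the pair labelled Dhh-Cre throughout, and every direction drawn from them carries this doubt.

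Markers of other testis cells moved with the groups. All 7 macrophage markers rose in both lines as deposited, with a summed intensity of 824 to 879 in control, 10791 to 11180 in the pair labelled Dhh-Cre and 16185 to 19200 with Sf1-Cre. The 4 measured Leydig markers summed to 5138 to 5708 in control and 17783 to 26737 in the other 6 arrays, where 4 (Sf1-Cre) and 3 (pair labelled Dhh-Cre) passed as higher as deposited. All 5 granulosa markers tested rose in both lines. The 7 measured, tested or not, summed to 896 to 922 in control and to between 5277 and 11600 in the other arrays. The 12 Sertoli markers measured summed to 25038 and 25549 in control, 44831 and 47026 in the pair labelled Dhh-Cre and 28320 to 30299 with Sf1-Cre. As deposited they went both ways in Sf1-Cre, with 7 higher and 3 lower than control (lowest log2 fold change -6.22). In the pair labelled Dhh-Cre 10 were higher and 0 lower, and 8 were lower in Sf1-Cre than in that pair. The 4 endothelial markers tested were higher in both lines. Of 6 peritubular markers 4 (Sf1-Cre) and 5 (pair labelled Dhh-Cre) were higher and 1 lower in each. Of the 6 epididymis markers 4 were tested, and in each line Defb15 passed as higher, Ros1 as lower, and Spink8 and Adam7 did not pass. The 6 summed to 3252 in replicate 1 labelled Dhh-Cre, 4410 in Sf1-Cre replicate 1 and 1494 in Sf1-Cre replicate 3, against 56.5 to 167 in the other 5 arrays; Spink8 had log2 levels of 11.55, 12.05 and 10.49 in those 3 arrays. The part of these markers in the results on Tex and Spata genes was not tested.

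The scaling of the arrays bears on every change against control. With each array centred on the median level of 13 housekeeping genes ("centred on housekeeping levels"), all changes against control shifted by -1.70 (Sf1-Cre) or -1.69 (pair labelled Dhh-Cre) on the log2 scale. That took the median change of the 13 genes themselves from 0.78 and 0.76 to -0.92 and -0.93. With each array shifted instead by the median of the 13 genes' own changes ("centred on housekeeping changes"), a scaling chosen after the data were seen, the shifts were -0.864 and -0.862 and the median change of the 13 genes was -0.08 and -0.10. The difference between the lines moved by only -0.00208 and -0.0019. The 13 genes were not steady themselves. As deposited, 10 passed as higher and 1 as lower than control in each line. Their log2 fold changes ran from -1.92 to 3.27 in Sf1-Cre and from -3.25 to 2.38 in the pair labelled Dhh-Cre.

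Promoter windows, from 250 bases before to 50 bases after the start of the transcript, were matched by symbol for 48 of the 57 genes (59 windows, RefSeq, GRCm38.p6). Of the genes contrasted below, 4 are shown, with every match to 5 searched motifs in capitals. Tex19.1 and Tex19.2 are neighbouring paralogs on chromosome 11 that changed differently, Tex36 is a late gene that differed between the lines, and Spata7 is a broad gene that fell.
Tex19.1 (chr11:121145893-121146192, + strand): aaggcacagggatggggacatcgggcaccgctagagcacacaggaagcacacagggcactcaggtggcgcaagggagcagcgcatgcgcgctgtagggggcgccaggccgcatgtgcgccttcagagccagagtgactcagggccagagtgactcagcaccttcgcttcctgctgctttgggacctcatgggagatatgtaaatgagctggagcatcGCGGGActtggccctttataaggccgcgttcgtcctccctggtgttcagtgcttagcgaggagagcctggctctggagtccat
Tex19.2 (chr11:121118628-121118927, - strand): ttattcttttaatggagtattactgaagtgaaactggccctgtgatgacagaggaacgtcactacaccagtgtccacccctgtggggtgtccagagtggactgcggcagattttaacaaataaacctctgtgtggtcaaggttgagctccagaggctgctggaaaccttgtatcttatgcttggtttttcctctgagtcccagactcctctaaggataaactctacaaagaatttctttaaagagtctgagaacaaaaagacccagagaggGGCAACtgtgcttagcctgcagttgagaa
Tex36 (chr7:133602066-133602365, - strand): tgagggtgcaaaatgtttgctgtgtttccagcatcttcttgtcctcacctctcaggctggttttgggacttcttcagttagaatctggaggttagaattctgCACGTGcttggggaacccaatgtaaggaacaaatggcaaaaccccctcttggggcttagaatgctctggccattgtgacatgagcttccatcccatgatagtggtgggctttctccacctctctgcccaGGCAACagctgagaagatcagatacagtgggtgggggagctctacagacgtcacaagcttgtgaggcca
Spata7 (chr12:98627892-98628191, + strand): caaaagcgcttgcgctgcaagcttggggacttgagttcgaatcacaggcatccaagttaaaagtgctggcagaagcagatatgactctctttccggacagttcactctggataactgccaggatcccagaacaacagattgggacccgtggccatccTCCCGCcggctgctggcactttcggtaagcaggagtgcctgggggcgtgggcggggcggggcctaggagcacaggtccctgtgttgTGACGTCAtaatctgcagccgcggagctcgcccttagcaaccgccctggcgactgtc

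The motifs, searched on both strands, were TGACGTCA (CRE), GTTGCC (core of the RFX motif), TCCCGC (E2F), CACGTG (E-box) and ACAATGT (core of the Dmrt1 motif). The windows of Tex19.1 and Tex19.2 lie 27 kb apart on opposite strands. That of Tex19.1 holds 16 CpG dinucleotides and an E2F match, and that of Tex19.2 holds 2 CpG and an RFX match. The Tex36 window holds an E-box and an RFX match with 2 CpG, and the Spata7 window a CRE and an E2F match with 17 CpG.

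Over all members the windows differed by role. The median CpG count was 4 in the 38 windows of late genes, 16 in the 7 of early genes and 25 in the 14 of broad genes, against 7 in all 32851 windows of the table. The E2F motif was in 71.4% of broad, 42.9% of early and 13.2% of late windows, against 20.0% of all windows. The RFX core was in 18.4% of late windows against 12.5% of all. Overlapping windows of Tex35 hold the same RFX match and count more than once in the late share, as do those of Spata1 for E2F. Those of Tex264 hold the same E2F match and count more than once in the broad share. The CRE motif was in 0 of the 38 late windows and in 1.79% of all, and the Dmrt1 core was in 2.63% of late windows against 2.96% of all. A match is a description of these letters only.

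Most Tex and Spata genes fell in both lines. In the Sf1-Cre arrays 43 of the 55 genes tested were lower than control, 3 were higher and 9 did not pass (adjusted p under 0.05, limma with Benjamini-Hochberg adjustment over all 13802 genes). Among all genes tested, 33.2% were lower and 46.6% higher. The median log2 fold change was -3.26 over the 55 genes and 0.34 over all genes tested. In the pair labelled Dhh-Cre 42 were lower, 8 were higher and 5 did not pass, where 30.5% of all genes tested were lower and 49.1% higher. There the median log2 fold change was -5.06 over the 55 genes (-4.44 with levels under log2 4 set to 4) and 0.54 over all genes tested. Filtered on the Cre arrays alone, 46 of the 55 pass. The others were tested because control was high, and their fall was largely fixed in advance by the filter.

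Both comparisons use the same 2 control arrays, and the counts side by side are not independent. Of the 55 genes, 41 passed as lower in both and 3 (Spata13, Spata5l1 and Tex19.1) as higher in both. Centred on housekeeping levels, 0 genes passed as higher in either line, and 53 (Sf1-Cre) and 50 (pair labelled Dhh-Cre) passed as lower. Centred on housekeeping changes, Spata13 passed as higher in both lines and Tex19.1 in the pair labelled Dhh-Cre, and 52 and 43 genes passed as lower. Quantile normalization left 2 and 8 genes higher. Rises are therefore given for the scaling as deposited, with the centred values beside them.

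**Figure D1:**
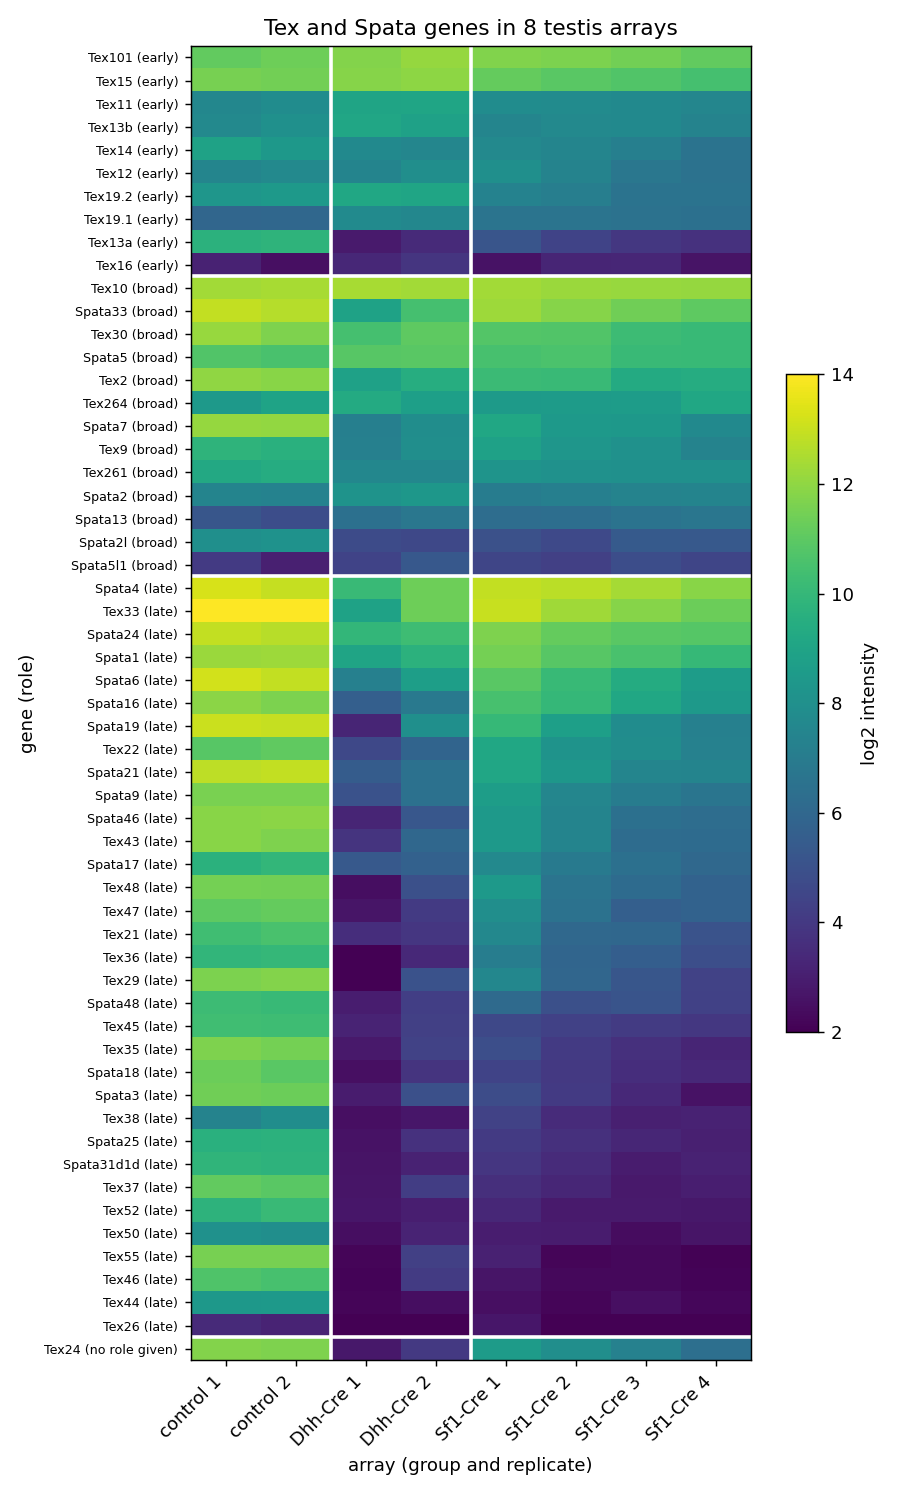
Heat map of the log2 intensity (colour) of the 57 Tex and Spata genes (rows, by role) in each of the 8 arrays (columns: control, labelled Dhh-Cre, Sf1-Cre). Tex26 is dark throughout. Most other late genes change from bright in the 2 control arrays to dark in the pair labelled Dhh-Cre. In the Sf1-Cre arrays they are intermediate or dark. Among the late genes, Spata1, Spata4, Spata24 and Tex33 stay brighter in both lines. The only early gene with the pattern of most late genes is Tex13a.

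The early genes differed between the lines. Against control, 4 of 9 tested were lower and 1 higher in the Sf1-Cre arrays (median log2 fold change -0.41), beside 33.2% and 46.6% of all genes tested. In the pair labelled Dhh-Cre 2 were lower and 5 higher (median 0.69), beside 30.5% and 49.1%, so that 4 of 9 lower in Sf1-Cre and 5 of 9 higher in the pair lie near the shares of all genes. Centred on housekeeping levels, 9 and 6 were lower and 0 higher, with medians of -2.11 and -1.004, and centred on housekeeping changes 8 and 2 were lower and 0 and 1 higher, with medians of -1.28 and -0.17. Tested directly, 5 of the 9 (Tex11, Tex13b, Tex15, Tex19.1 and Tex19.2) were lower in Sf1-Cre than in the pair labelled Dhh-Cre and 0 were higher, where 11.8% of all genes tested were lower and 12.9% higher. Both centrings shift the 2 lines almost alike, so the same counts under them are no further support.

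Tex19.2, the paralog of Tex19.1, had log2 levels of 8.31 and 8.50 in control, 9.16 and 9.08 in the pair labelled Dhh-Cre, and 7.30, 7.15, 6.57 and 6.57 with Sf1-Cre. The 3 groups did not overlap, with control in the middle. It fell by 1.51 on the log2 scale in Sf1-Cre against control (SE 0.24, adjusted p = 0.000591) and stood at a log2 fold change of -2.22 against the pair labelled Dhh-Cre (SE 0.24, adjusted p = 0.00104). The rise in the pair labelled Dhh-Cre (0.71, SE 0.28, adjusted p = 0.0435) did not pass without either control array, either array labelled Dhh-Cre or Sf1-Cre replicate 2 (log2 fold changes of 0.61 to 0.81), and was -0.98 centred on housekeeping levels and -0.15 centred on housekeeping changes.

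Tex19.1, which restrains transposons and binds the ubiquitin ligase Ubr2, had log2 levels of 5.97 and 6.03 in control, 7.74 and 7.56 in the pair labelled Dhh-Cre, and 6.62, 6.62, 6.51 and 6.42 in the Sf1-Cre arrays. Here control was lowest and the pair labelled Dhh-Cre highest, with no overlap. The log2 fold change against control was 1.65 (SE 0.15, adjusted p = 3.55e-05) in the latter and 0.54 (SE 0.13, adjusted p = 0.00588) in Sf1-Cre, and these became -0.05 and -1.15 centred on housekeeping levels. Centred on housekeeping changes the first still passed (0.785, adjusted p = 0.00533) and the second was -0.32 (adjusted p = 0.104). Between the lines it was -1.10 (SE 0.13, adjusted p = 0.00162).

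Tex11, an X-linked gene needed in meiosis, had log2 levels of 7.54 and 7.83 in control, 8.99 and 9.05 in the pair labelled Dhh-Cre, and 7.86, 7.81, 7.68 and 7.49 in the Sf1-Cre arrays. Tex13b, also X-linked, had 7.65 and 8.04, then 9.10 and 8.87, then 7.48, 7.64, 7.68 and 7.36 in the same order of groups. For both genes the Sf1-Cre arrays overlapped control and the pair labelled Dhh-Cre stood above the rest. Tex11 was 1.33 higher in the latter than in control (SE 0.19, adjusted p = 0.000271) and Tex13b 1.14 higher (SE 0.20, adjusted p = 0.00097), both as log2 fold changes that became -0.36 and -0.56 centred on housekeeping levels, and 0.47 and 0.28, neither passing, centred on housekeeping changes. Between the lines the log2 fold changes were -1.31 (SE 0.16) for Tex11 and -1.44 (SE 0.17) for Tex13b, with adjusted p of 0.0017 and 0.00154.

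Tex15 had log2 levels of 11.53 and 11.46 in control, 11.83 and 11.97 in the pair labelled Dhh-Cre, and 11.18, 10.95, 10.73 and 10.45 with Sf1-Cre. The groups did not overlap, again with control in the middle. Its log2 fold change was -0.67 in Sf1-Cre against control (SE 0.21, adjusted p = 0.0177), a call lost without control replicate 1 (-0.64) or 2 (-0.70). Between the lines it was -1.07 (SE 0.21, adjusted p = 0.01), lost without replicate 1 (-1.15) or 2 (-0.997) labelled Dhh-Cre.

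Of the other early genes, Tex14 had log2 levels of 8.91 and 8.40 in control, 7.71 and 7.52 in the pair labelled Dhh-Cre, and 7.63, 7.48, 7.18 and 6.55 in the Sf1-Cre arrays. All 6 Cre arrays were below control. The log2 fold change was -1.45 in Sf1-Cre (SE 0.31, adjusted p = 0.00278) and -1.05 in the pair labelled Dhh-Cre (SE 0.36, adjusted p = 0.0256), the latter lost without control replicate 1 (-0.79) or without replicate 1 (-1.14) or 2 (-0.95) labelled Dhh-Cre.

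Tex101, a surface glycoprotein of germ cells needed for sperm protein processing, had log2 levels of 11.13 and 11.36 in control, 11.78 and 12.10 in the pair labelled Dhh-Cre, and 11.73, 11.62, 11.44 and 11.14 in the Sf1-Cre arrays. Only the pair labelled Dhh-Cre stood clear of control. Their log2 fold change of 0.69 (SE 0.23, adjusted p = 0.0253) was lost without control replicate 1 (0.57) or replicate 2 labelled Dhh-Cre (0.53), and was -1.004 centred on housekeeping levels and -0.17 centred on housekeeping changes. Tex12 had log2 levels of 7.48 and 7.67 in control, 7.40 and 7.92 in the pair labelled Dhh-Cre, and 7.97, 7.38, 6.76 and 6.52 in the Sf1-Cre arrays, overlapping throughout, and passed in none of the 3 comparisons as deposited; in Sf1-Cre it passed as lower centred on housekeeping levels (-2.11, adjusted p = 0.00225) or changes (-1.28, adjusted p = 0.024).

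Tex13a stood apart from the other early genes. Its log2 levels were 9.72 and 9.81 in control, 2.89 and 3.41 in the pair labelled Dhh-Cre, and 5.19, 4.41, 3.94 and 3.70 in the Sf1-Cre arrays, with both lines far below control. It fell by 5.45 on the log2 scale in Sf1-Cre (SE 0.39, adjusted p = 7.93e-06), 43.9-fold lower, and was at least 54.3-fold lower in the pair labelled Dhh-Cre (adjusted p = 8.86e-06). A fold is written "at least" where a group mean lies under log2 4, which then takes its place. Tex16 stayed between 2.51 and 3.86 on the log2 scale in all 8 arrays, under log2 4 throughout, and was not tested.

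**Figure D2:**
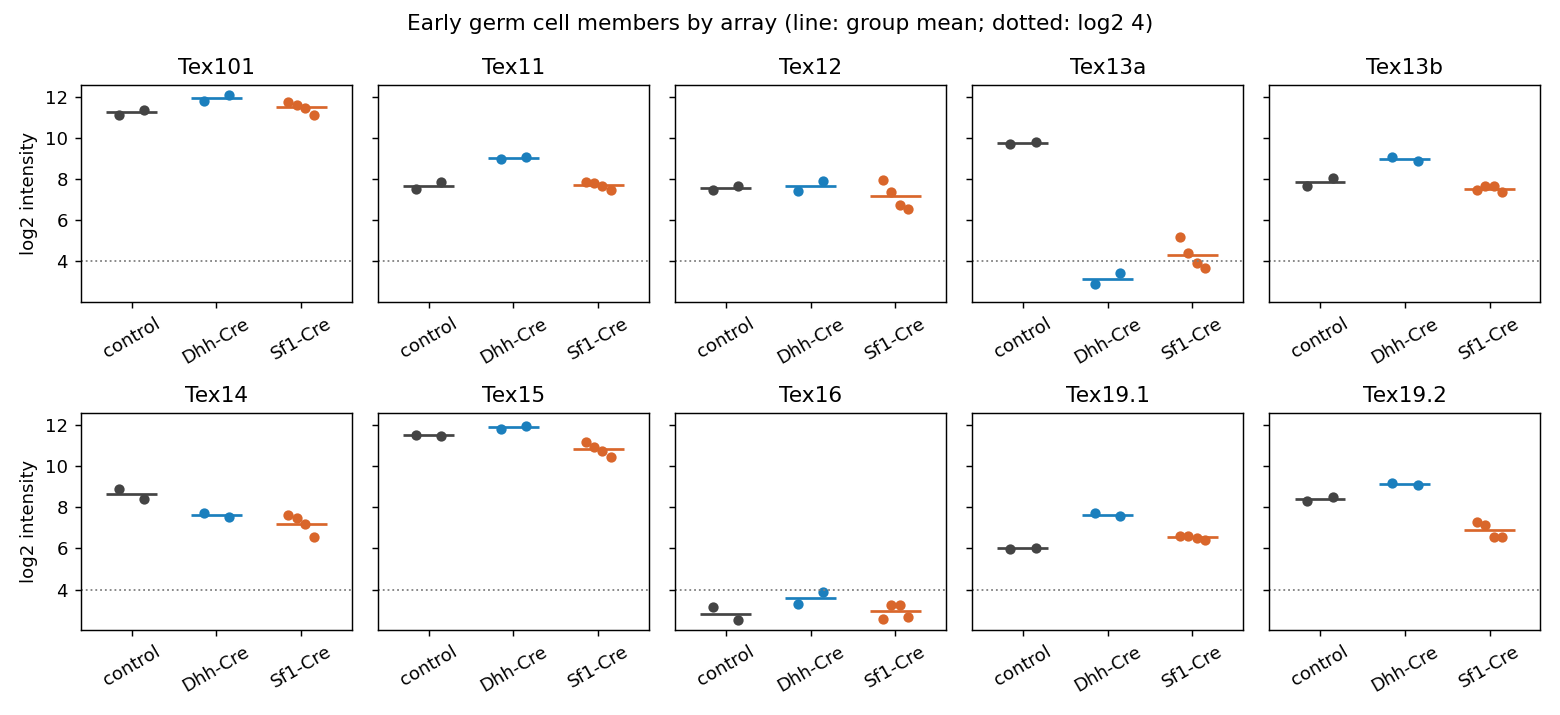
Log2 intensity (y axis) of the 10 early genes in the 3 groups (x axis), 1 point per array, with lines at the group means and a dotted line at log2 4. In Tex11, Tex13b, Tex15, Tex19.1 and Tex19.2 the Sf1-Cre points lie below those labelled Dhh-Cre, a difference that the centrings hardly move. Tex13a lies far below control in both lines.

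The late genes fell in both lines. All 32 tested had every Cre array below both control arrays (among all genes tested, the arrays lay so in 36.0% for Sf1-Cre and 35.1% for the other line). Filtered on the Cre arrays alone, 23 of the 32 pass. The others were tested because control was high, so their fall was largely fixed in advance by the filter. Among them, Spata31d1d, Tex44, Tex50 and Tex52 had only the 2 control arrays at log2 4 or above. These genes stay in the counts and medians that follow. In Sf1-Cre 31 of the 32 passed as lower and 0 as higher, with a median log2 fold change of -4.73 (-4.66 with levels under log2 4 set to 4). In the pair labelled Dhh-Cre all 32 passed as lower, with a median of -6.76 (-5.99 with that bound). Of the 33 late genes, 13 had means under log2 4 in both lines, 7 were under it in the pair labelled Dhh-Cre alone, 0 in Sf1-Cre alone, and 13 were above it in both.

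The 13 late genes under log2 4 in both lines are given first. Tex55 had log2 levels of 11.53 and 11.54 in control, 2.18 and 4.29 in the pair labelled Dhh-Cre, and 3.11, 2.18, 2.24 and 2.06 in the Sf1-Cre arrays. Tex35 had 11.67 and 11.48, then 2.81 and 4.38, then 4.87, 4.04, 3.68 and 3.23. Of the 6 Cre arrays, replicate 2 labelled Dhh-Cre alone was above log2 4 in Tex55, and that array with Sf1-Cre replicates 1 and 2 in Tex35. Tex35 was at least 191-fold lower in either line (adjusted p = 6.52e-06 in Sf1-Cre and 1.36e-05 in the pair labelled Dhh-Cre).

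Spata3 had log2 levels of 11.40 and 11.29 in control, 2.90 and 4.93 in the pair labelled Dhh-Cre, and 4.77, 4.02, 3.37 and 2.60 in the Sf1-Cre arrays, and was at least 162-fold lower in either line. Spata18, a protein of mitochondrial quality control, had 11.29 and 10.91, then 2.48 and 3.80, then 4.42, 4.00, 3.58 and 3.36 on the log2 scale. Tex37 had log2 levels of 11.10 and 10.93 in control, 2.69 and 4.18 in the pair labelled Dhh-Cre, and 3.60, 3.27, 2.82 and 2.99 in the Sf1-Cre arrays, at least 129-fold lower in either line. None of these 3 genes overlapped control, and their lines overlapped each other.

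Tex46 had log2 levels of 10.71 and 10.53 in control, 2.12 and 4.07 in the pair labelled Dhh-Cre, and 2.66, 2.27, 2.27 and 2.14 in the Sf1-Cre arrays, at least 98.4-fold lower in either line. Tex52 had 9.75 and 10.15, then 2.72 and 3.01, then 3.32, 2.89, 2.88 and 2.80, at least 61.8-fold lower. Spata31d1d had 9.83 and 9.76, then 2.65 and 3.13, then 3.89, 3.50, 2.92 and 3.17, at least 55.5-fold lower. In Tex52 and Spata31d1d all 6 Cre arrays were under log2 4.

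Spata25 had log2 levels of 9.61 and 9.73 in control, 2.59 and 3.73 in the pair labelled Dhh-Cre, and 4.06, 3.65, 3.27 and 3.04 in the Sf1-Cre arrays, at least 50.9-fold lower in either line. Tex44 had 8.41 and 8.46, then 2.17 and 2.46, then 2.49, 2.16, 2.48 and 2.20, at least 21.7-fold lower, a bound set by its lower control level. Tex38, which acts with the palmitoyl transferase Zdhhc19, and Tex50 had control means of 7.64 and 7.99 on the log2 scale and were at least 12.4-fold and 15.9-fold lower in either line. Tex26 was under log2 4 in all 8 arrays (1.55 to 3.41) and was not tested.

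The 7 late genes that stayed above log2 4 in Sf1-Cre only were Spata48, Tex21, Tex29, Tex36, Tex45, Tex47 and Tex48. Tex29 had log2 levels of 11.62 and 11.79 in control, 1.97 and 5.03 in the pair labelled Dhh-Cre, and 7.53, 5.94, 5.21 and 4.36 in the Sf1-Cre arrays. Its 2 arrays labelled Dhh-Cre differed widely and replicate 2 lay within the Sf1-Cre range. Tex29 was 61.5-fold lower in Sf1-Cre (adjusted p = 0.000793) and at least 209-fold lower in the pair labelled Dhh-Cre (adjusted p = 0.000287). Tex45 had log2 levels of 10.31 and 10.27 in control, 3.19 and 4.27 in the pair labelled Dhh-Cre, and 4.62, 4.32, 4.09 and 3.95 in the Sf1-Cre arrays, 66-fold lower in Sf1-Cre and at least 78.2-fold lower in the other line.

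In Sf1-Cre the late genes that kept most level, by the probe sets used, were Spata4, Spata1, Spata24, Tex33 and Spata16. A second probe set fell further for Spata24 (log2 fold change -2.88, against -1.65) and Tex33 (-3.66, against -2.03). That of Spata16 was close to the one used (-2.09, against -2.25). Spata4 had log2 levels of 13.27 and 12.95 in control, 10.12 and 11.37 in the pair labelled Dhh-Cre, and 12.92, 12.75, 12.38 and 11.88 in the Sf1-Cre arrays. It was the 1 late gene that did not pass in Sf1-Cre (log2 fold change -0.63, SE 0.39, adjusted p = 0.174), although its arrays lay just below control, and it passed under both centrings (-2.32 and -1.49). It was 5.14-fold lower in the pair labelled Dhh-Cre (adjusted p = 0.00164). Spata1 and Spata24 were 2.79-fold and 3.14-fold lower in Sf1-Cre and 7.14-fold and 6.42-fold lower in the pair labelled Dhh-Cre. Spata1 missed the threshold in Sf1-Cre without control replicate 2 (log2 fold change -1.45), and Tex33 (4.10-fold lower, adjusted p = 0.0235) missed it without control replicate 1 (-1.98), control replicate 2 (-2.09) or Sf1-Cre replicate 3 (-1.94).

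Spata6, needed for the connecting piece between head and tail, was 9.57-fold lower in Sf1-Cre (adjusted p = 0.00179) and 33.3-fold lower in the pair labelled Dhh-Cre (adjusted p = 0.000343). Its other probe sets above log2 4 fell less. Their log2 fold changes were -2.14 and -2.35 in Sf1-Cre, against -3.26 for the one used. In the pair labelled Dhh-Cre they were -2.61 and -3.52, against -5.06. Spata19, a mitochondrial protein of the midpiece, had log2 levels of 13.05 and 12.94 in control, 3.22 and 7.97 in the pair labelled Dhh-Cre, and 10.03, 8.76, 7.83 and 7.21 in the Sf1-Cre arrays. Its gap of 4.75 between the 2 arrays labelled Dhh-Cre was the widest among the late genes. Its fall in Sf1-Cre (log2 fold change -4.54, SE 1.24, adjusted p = 0.00995) missed the threshold without control replicate 1 (-4.48) or 2 (-4.59).

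**Figure D3:**
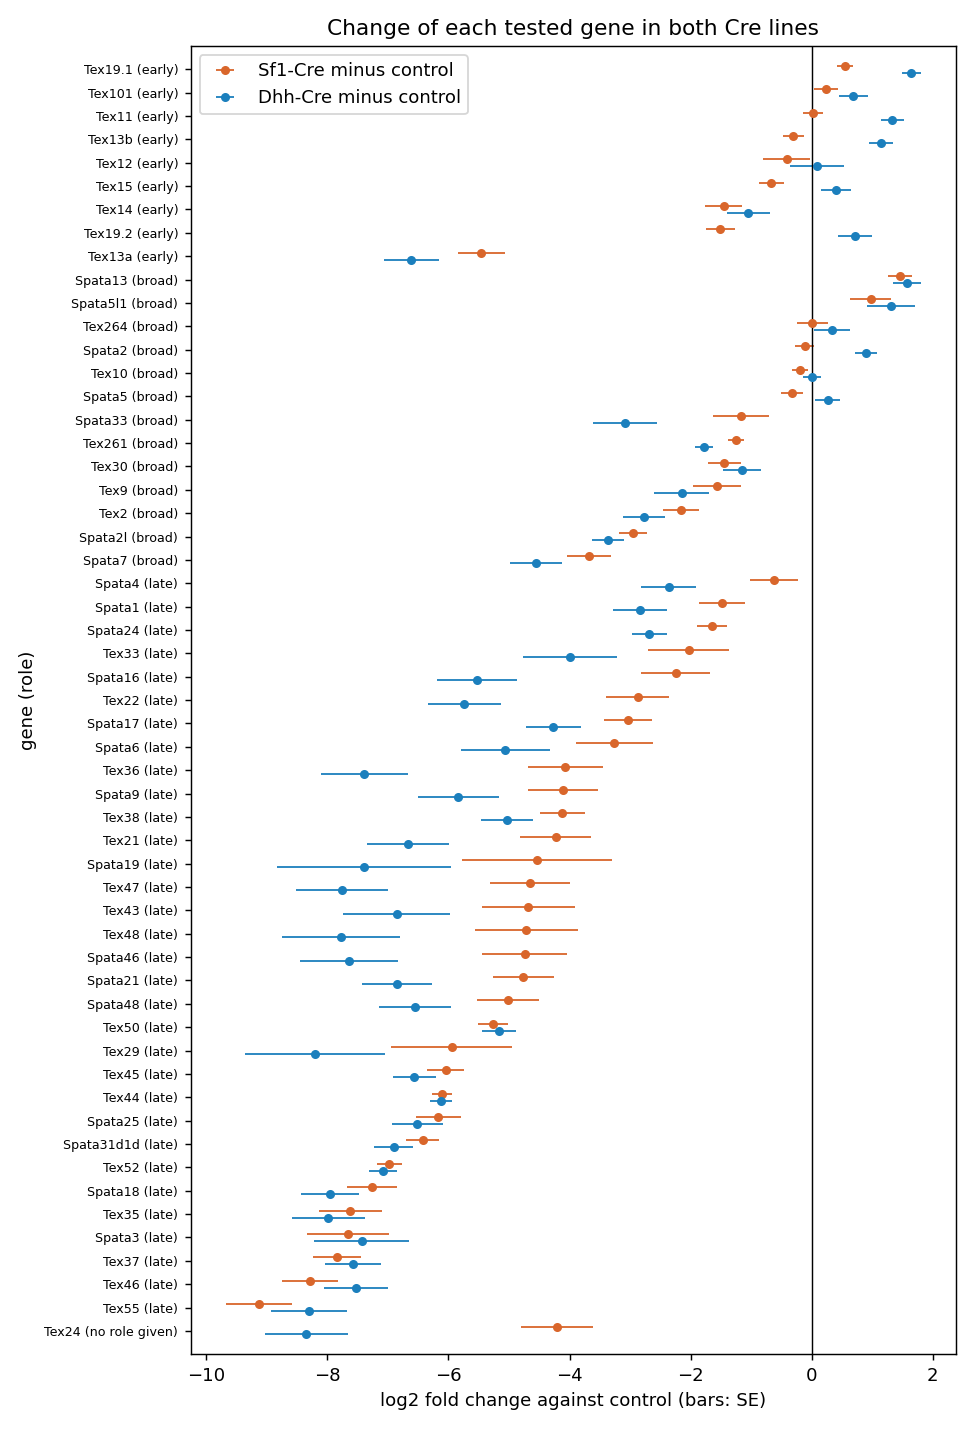
Log2 fold change against control (x axis, points, with SE bars) of the 55 tested genes (y axis, by role) in Sf1-Cre and in the pair labelled Dhh-Cre. All late genes lie left of 0 in both lines, most with the point labelled Dhh-Cre further left, and the points right of 0 (among them Tex19.1, Tex11, Tex13b, Spata13 and Spata2) shift by -1.70 or -1.69 when the arrays are centred on housekeeping levels and by -0.864 or -0.862 when centred on housekeeping changes.

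The direct comparison of the lines set late against early genes. Over the 55 genes, 14 were higher in Sf1-Cre than in the pair labelled Dhh-Cre and 6 lower, with 35 not passing and a median log2 fold change of 0.53, against 0.02 over all genes tested. Of the 14 higher genes 11 were late, 2 broad and the last Tex24, and of the 6 lower genes 5 were early and the sixth was Spata2. The late genes had a median of 1.45 (1.24 with levels under log2 4 set to 4) and the early genes of -1.07. The late median was 0.83 without replicate 1 labelled Dhh-Cre and 0.89 with all probe sets of a gene averaged. The arrays of the lines did not overlap in 16 of 32 late genes, all with Sf1-Cre higher, where Sf1-Cre lay above without overlap in 24.5% of all genes tested. With values under log2 4 set to 4 it was 15 of 32, beside 20.9%.

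The count of higher genes rests on single arrays. Without replicate 1 labelled Dhh-Cre, which leaves 1 array whose spread is taken from the other groups, 1 gene (Tex24) stayed higher and 7 were lower. Of these 7, Tex46 and Tex55 had Sf1-Cre means under log2 4 beside a remaining array at 4.07 and 4.29, so no size is given for them. Without replicate 2 labelled Dhh-Cre the count was 15, of which 10 were among the 14. It was 7 without Sf1-Cre replicate 2 and 20 without Sf1-Cre replicate 4. Tex11, Tex13b, Tex19.1, Tex19.2 and Spata2 were called lower in all 19 alternative fits.

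Tex24, to which no stage was given, had log2 levels of 11.79 and 11.69 in control, 2.79 and 4.00 in the pair labelled Dhh-Cre, and 8.61, 7.93, 7.25 and 6.36 in the Sf1-Cre arrays. Control was highest, the pair labelled Dhh-Cre lowest, and the groups did not overlap. It was 18.4-fold lower in Sf1-Cre (adjusted p = 0.000303) and at least 214-fold lower in the pair labelled Dhh-Cre (adjusted p = 1.9e-05) than in control. Sf1-Cre was at least 11.6-fold above the other line (log2 fold change 4.14, SE 0.59, adjusted p = 0.0032), a call kept in all 19 alternatives.

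Tex36 had log2 levels of 9.90 and 9.97 in control, 1.71 and 3.38 in the pair labelled Dhh-Cre, and 7.07, 5.93, 5.58 and 4.89 in the Sf1-Cre arrays. Spata16, a protein of the forming acrosome, had 11.91 and 11.63, then 5.65 and 6.83, then 10.51, 9.98, 9.14 and 8.46 on the log2 scale. In both genes every Sf1-Cre array lay between control and the pair labelled Dhh-Cre. Between the lines Tex36 was at least 3.65-fold higher in Sf1-Cre (adjusted p = 0.00896) and Spata16 was 9.70-fold higher (adjusted p = 0.00667). Both calls were lost without replicate 1 labelled Dhh-Cre, at log2 fold changes of 2.49 and 2.69, the first against a remaining array under log2 4. Spata16 passed as lower than control in Sf1-Cre (4.75-fold, adjusted p = 0.00681) but not without control replicate 1 (-2.11). Its second probe set differed less between the lines (log2 fold change 1.93, against 3.28 for the one used).

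Tex47 had log2 levels of 11.04 and 11.19 in control, 2.66 and 4.03 in the pair labelled Dhh-Cre, and 7.95, 6.50, 5.63 and 5.78 in the Sf1-Cre arrays. Tex48 had 11.49 and 11.45, then 2.46 and 4.94, then 8.46, 6.60, 6.19 and 5.79. Spata46, a protein of the sperm head, had 11.89 and 11.90, then 3.24 and 5.26, then 8.45, 7.40, 6.45 and 6.31. All 3 genes had Sf1-Cre between control and the other line without overlap. Sf1-Cre was at least 5.52-fold (Tex47, adjusted p = 0.0139), at least 6.77-fold (Tex48, adjusted p = 0.035) and 7.46-fold (Spata46, adjusted p = 0.0227) above the pair labelled Dhh-Cre. Without replicate 1 of the latter these calls were lost, at log2 fold changes of 2.43, 1.82 and 1.89, and those of Tex48 and Spata46 also without Sf1-Cre replicate 2 (3.11 and 2.82). With values under log2 4 set to 4 the call of Tex48 was lost (2.29, adjusted p = 0.0596), and it was further lost without Sf1-Cre replicate 3 (3.25) or without either control array (3.06).

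The other late genes higher in Sf1-Cre were Tex22 (log2 fold change 2.87), Tex21 (at least 4.57-fold), Spata21 (2.09), Spata4 (1.73), Spata1 (1.36) and Spata24 (1.03). Without replicate 1 labelled Dhh-Cre none of these 6 passed, at fitted log2 fold changes of 2.23, 2.27, 1.61, 1.11, 1.00 and 0.86 in that order, all still above 0. The fitted values of Tex21, Tex47 and Tex48 rest on means or arrays labelled Dhh-Cre of which some lie under log2 4. Without replicate 2 labelled Dhh-Cre the calls of Tex21 (2.602), Spata1 (1.71) and Spata24 (1.21) were lost. Without Sf1-Cre replicate 2 those of Spata21 (2.00), Spata1 (1.31) and Spata24 (1.02) were lost, and that of Spata1 also without Sf1-Cre replicate 3 (1.42) or either control array (1.36).

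**Figure D4:**
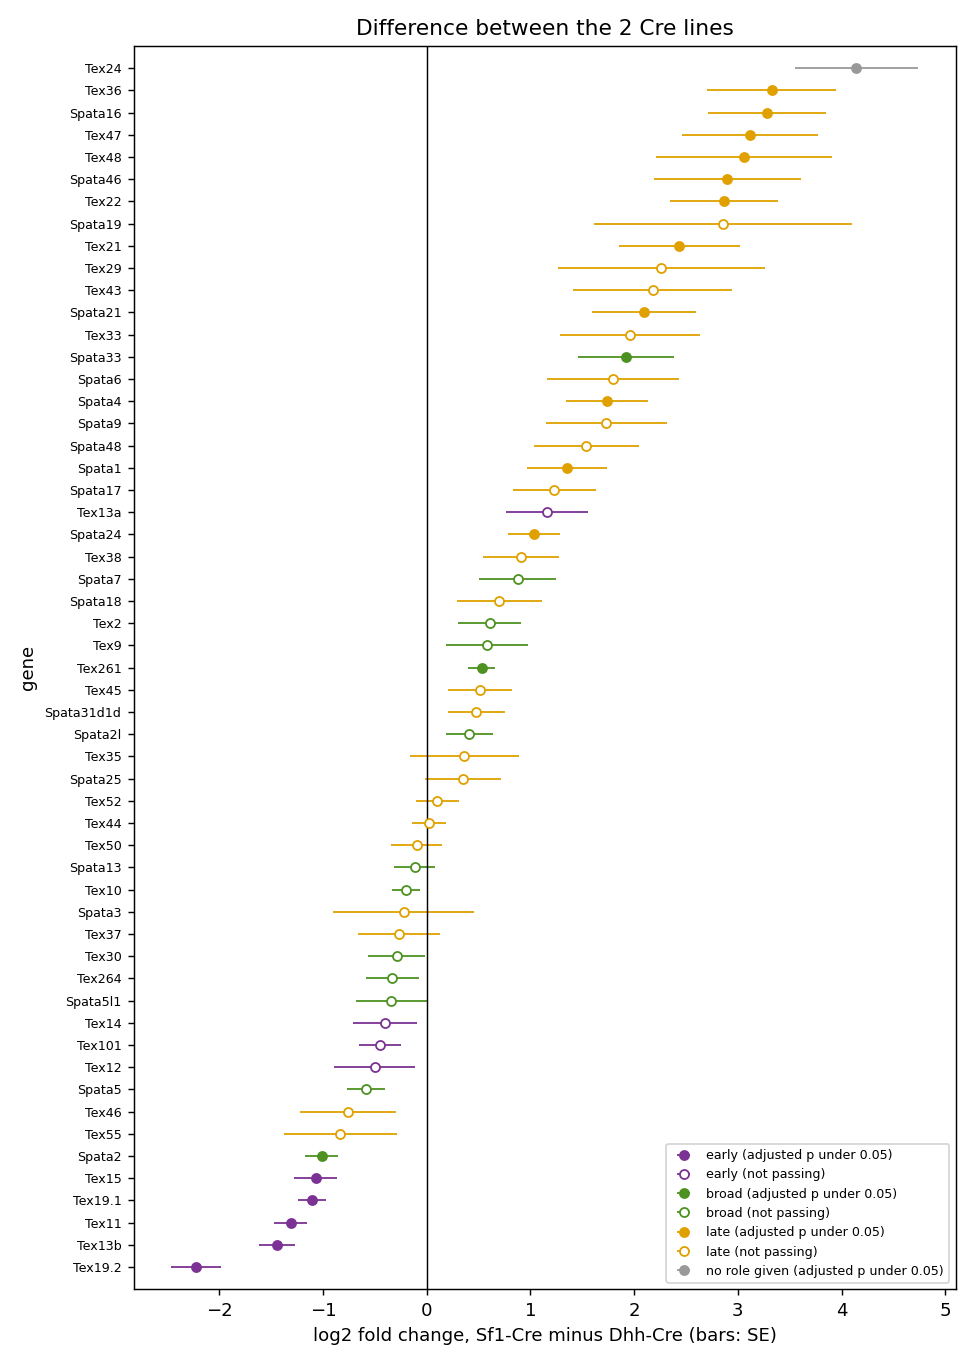
Log2 fold change of Sf1-Cre minus the pair labelled Dhh-Cre (x axis, points, with SE bars) for the 55 tested genes (y axis), coloured by role and filled where the adjusted p is under 0.05. Late genes fill the right side, with Tex24 furthest right at 4.14, and 5 early genes and Spata2 form the filled points on the left.

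The arrays of a group differed in a common way over the late genes. Since values under log2 4 have no order, these were set to 4 and only genes with at least 1 array of the group above it were compared. Replicate 2 labelled Dhh-Cre was above replicate 1 in 23 of 23 such late genes, by a median of 0.94 on the log2 scale, against 49.1% of all genes and a median of -0.0052 over them. Sf1-Cre replicate 1 was the highest of its 4 arrays in 25 of 25 late genes (32.1% of all genes), and Sf1-Cre replicate 4 the lowest in 19 (28.7%). Early genes had no such gap between the pair labelled Dhh-Cre (replicate 2 higher in 4 of 8), but Sf1-Cre replicate 1 was highest and replicate 4 lowest in 8 of 9 each. In the spermatid list replicate 2 labelled Dhh-Cre was above replicate 1 in 28 of 28 genes and Sf1-Cre replicate 1 highest in 28 of 29. The summed epididymis markers, given above with the levels of Spink8, were high in replicate 1 labelled Dhh-Cre and in Sf1-Cre replicates 1 and 3. Their median log2 levels there were 4.55, 4.32 and 3.05. The part of these markers in the order of the late genes was not tested.

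Summed over the 33 late genes, the intensity was 114290 and 107190 in control, 3600 and 8901 in the pair labelled Dhh-Cre, and 30313, 20457, 15113 and 11006 with Sf1-Cre. The 3 groups did not overlap. The sum over the 10 early genes was 7479 and 7825 in control, 9374 and 10587 in the pair labelled Dhh-Cre, and 6888, 6166, 5359 and 4374 in the Sf1-Cre arrays, so that the order of the lines was turned.

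**Figure D5:**
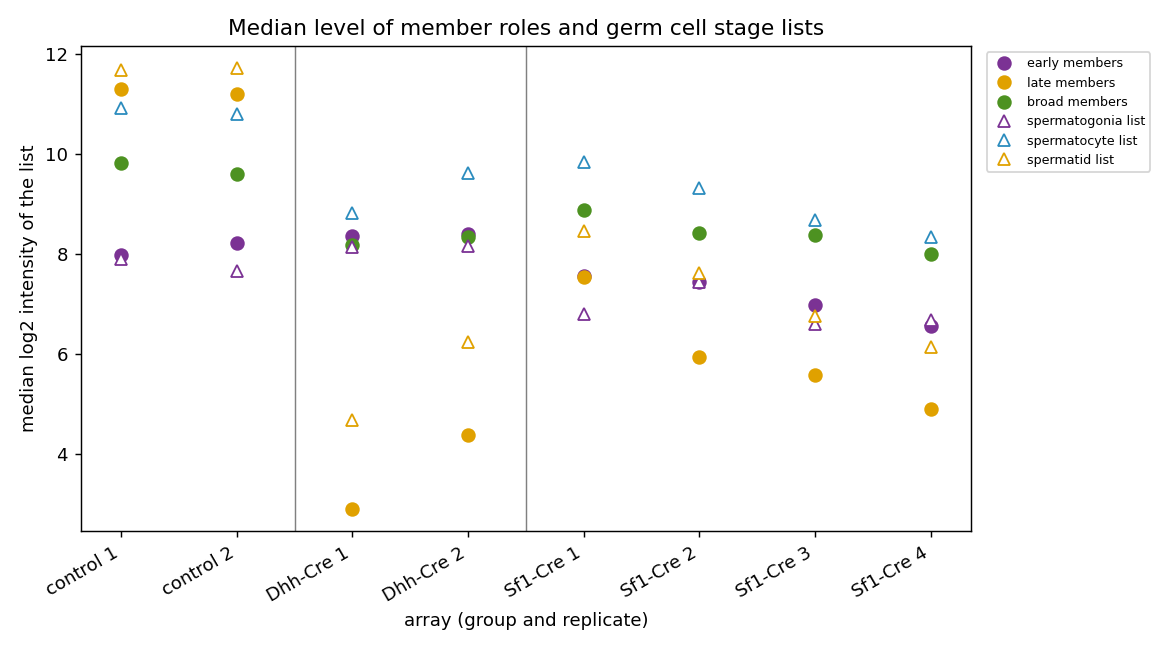
Median log2 intensity (y axis) of the early, late and broad genes (filled circles) and of 3 germ cell stage lists (open triangles) in each of the 8 arrays (x axis). The late genes and the spermatid list are highest in control and lowest in replicate 1 labelled Dhh-Cre (2.90 and 4.67), and the early genes are lower in every Sf1-Cre array (6.56 to 7.55) than in those labelled Dhh-Cre (8.36 and 8.39).

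The 13 broad genes were listed as acting in many tissues, although Spata33 is described below as a protein of sperm. All had means above log2 4 in both lines. Against control 7 were lower and 2 higher in Sf1-Cre (median log2 fold change -1.16), beside 33.2% and 46.6% of all genes tested. In the pair labelled Dhh-Cre 7 were lower and 3 higher (median -1.15), beside 30.5% and 49.1%. With all probe sets of a gene averaged the medians were -0.32 and -0.10. Centred on housekeeping levels 11 were lower and 0 higher in each line (medians -2.86 and -2.85), and centred on housekeeping changes 11 and 8 were lower and 1 higher in each (medians -2.03 and -2.01). As deposited, the 7 lower genes were the same in both lines: Spata2l, Spata33, Spata7, Tex2, Tex261, Tex30 and Tex9.

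Spata7, a protein of the photoreceptor connecting cilium, had log2 levels of 12.12 and 12.05 in control, 7.17 and 7.89 in the pair labelled Dhh-Cre, and 9.13, 8.42, 8.38 and 7.71 in the Sf1-Cre arrays. Spata2l, a paralog of Spata2, had 7.97 and 8.14, then 4.76 and 4.61, then 4.99, 4.65, 5.40 and 5.34. Both lay far below control in all 6 Cre arrays, and the lines overlapped. Spata7 was 12.8-fold lower in Sf1-Cre (adjusted p = 4.57e-05) and 23.5-fold lower in the pair labelled Dhh-Cre (adjusted p = 3.55e-05), and Spata2l 7.75-fold (adjusted p = 1.1e-05) and 10.3-fold lower (adjusted p = 1.5e-05).

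Tex2, which moves lipids at contacts of the endoplasmic reticulum, had log2 levels of 11.998 and 11.85 in control, 8.86 and 9.46 in the pair labelled Dhh-Cre, and 10.19, 10.12, 9.35 and 9.41 in the Sf1-Cre arrays. Tex9 had 9.82 and 9.60, then 7.21 and 7.92, then 8.88, 8.31, 8.05 and 7.36. Tex30 had 12.14 and 11.67, then 10.47 and 11.03, then 10.79, 10.74, 10.21 and 10.11. Again every Cre array was below control and the lines overlapped. Tex2 was 4.46-fold lower in Sf1-Cre and 6.79-fold lower in the pair labelled Dhh-Cre, Tex9 2.95-fold and 4.42-fold, and Tex30 2.72-fold and 2.22-fold. The call of Tex9 in Sf1-Cre was lost without control replicate 1 (log2 fold change -1.46), and that of Tex30 in the other line without control replicate 1 (-0.92) or replicate 1 labelled Dhh-Cre (-0.87).

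Spata33, a mitochondrial protein of sperm that binds calcineurin, had log2 levels of 12.88 and 12.68 in control, 8.94 and 10.47 in the pair labelled Dhh-Cre, and 12.24, 11.84, 11.39 and 11.02 with Sf1-Cre. The groups did not overlap. It was 8.46-fold lower in the pair labelled Dhh-Cre (adjusted p = 0.000897). Its fall of 2.24-fold in Sf1-Cre was close to the threshold (adjusted p = 0.0462) and was lost in 8 of 19 alternatives, 5 of them with a control or Sf1-Cre array left out (log2 fold changes of -1.26 to -0.96). Between the lines it was 3.78-fold higher in Sf1-Cre (adjusted p = 0.0218), lost without replicate 1 labelled Dhh-Cre (1.15) or Sf1-Cre replicate 2 (1.85).

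Tex261 gave opposite directions by probe set. The probe set used had log2 levels of 9.24 and 9.41 in control, 7.56 and 7.53 in the pair labelled Dhh-Cre, and 8.21, 8.06, 8.03 and 8.003 in the Sf1-Cre arrays, with log2 fold changes against control of -1.25 and -1.78 in Sf1-Cre and the other line. Another probe set, with a control mean of 4.99, had log2 fold changes of 2.28 and 2.04. The direction of this gene is therefore uncertain, and its call as higher in Sf1-Cre than in the other line (0.53) was lost without either array labelled Dhh-Cre (0.54 and 0.51) or Sf1-Cre replicate 2 (0.53) or 3 (0.54). Probe sets also disagreed in sign for Tex10 against control in the pair labelled Dhh-Cre (0.01 and -0.21) and for Spata9 between the lines (1.73 and -0.41). Spata9 itself had log2 levels of 11.58 and 11.60 in control, 5.04 and 6.46 in the pair labelled Dhh-Cre, and 8.70, 7.51, 7.06 and 6.65 in the Sf1-Cre arrays, 17.2-fold and 57.2-fold lower than control in Sf1-Cre and the pair; its second probe set had means under log2 4 in both lines.

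Of the genes that rose, Spata13 had log2 levels of 5.21 and 4.82 in control, 6.44 and 6.74 in the pair labelled Dhh-Cre, and 6.28, 6.34, 6.55 and 6.73 in the Sf1-Cre arrays. All 6 Cre arrays were above control. It was 2.75-fold higher in Sf1-Cre (adjusted p = 0.000222) and 2.98-fold higher in the pair labelled Dhh-Cre (adjusted p = 0.000315), but its log2 fold changes were -0.24 and -0.12 centred on housekeeping levels. Centred on housekeeping changes it still passed in both lines (0.59, adjusted p = 0.0221, and 0.71, adjusted p = 0.02).

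Spata5l1, an ATPase of ribosome maturation, had log2 levels of 4.05 and 3.06 in control, 4.41 and 5.33 in the pair labelled Dhh-Cre, and 4.52, 4.27, 4.83 and 4.49 in the Sf1-Cre arrays, all near the floor. With a control mean under log2 4, it was at least 1.44-fold higher in Sf1-Cre (adjusted p = 0.0292) and at least 1.83-fold higher in the pair labelled Dhh-Cre (adjusted p = 0.015). With values under log2 4 set to 4 the call in Sf1-Cre was lost (log2 fold change 0.503, adjusted p = 0.117), as it was under quantile normalization (0.86, adjusted p = 0.0529). Both calls were lost without control replicate 2 (fitted values of 0.48 and 0.82), the first also without Sf1-Cre replicate 3 (0.87) and the second without replicate 2 labelled Dhh-Cre (0.86). Neither passed as higher centred on housekeeping levels (-0.72 and -0.38) or changes (0.11 and 0.45).

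Spata2, which joins the deubiquitinase Cyld to the ubiquitin ligase that contains Rnf31, had log2 levels of 7.39 and 7.32 in control, 8.17 and 8.34 in the pair labelled Dhh-Cre, and 7.02, 7.18, 7.36 and 7.41 with Sf1-Cre. The arrays labelled Dhh-Cre were above all others, and Sf1-Cre overlapped control. It was 1.87-fold higher in the pair labelled Dhh-Cre than in control (adjusted p = 0.00199), but had a log2 fold change of -0.79 centred on housekeeping levels and 0.04 centred on housekeeping changes, and missed the threshold as the mean of its probe sets (0.38, adjusted p = 0.0534). It was 2.02-fold lower in Sf1-Cre than in those arrays (adjusted p = 0.00427).

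Tex10, Tex264 and Spata5 passed in none of the 3 comparisons as deposited. Tex10, of a complex in ribosome maturation, had log2 levels of 12.33 and 12.44 in control, 12.44 and 12.35 in the pair labelled Dhh-Cre, and 12.33, 12.21, 12.14 and 12.09 in the Sf1-Cre arrays. Spata5, another ATPase of ribosome maturation, had 10.74 and 10.57, then 10.90 and 10.94, then 10.51, 10.58, 10.15 and 10.08. Tex264, a receptor for autophagy of the endoplasmic reticulum, had 8.45 and 8.98, then 9.34 and 8.77, then 8.53, 8.59, 8.62 and 9.15. Their log2 fold changes against control lay between -0.32 and 0.34, and that of Spata5 between the lines was -0.59 (SE 0.18, adjusted p = 0.0518). In Sf1-Cre all 3 passed as lower under both centrings, at -1.06 (Tex10), -0.853 (Tex264) and -1.19 (Spata5) on housekeeping changes.

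Other germ cell genes were listed by stage. A stage or partner gene that passed the filter because control was high had its fall largely fixed in advance. Such genes stay in the counts and medians that follow. Of 30 spermatid genes 29 were lower in Sf1-Cre (median log2 fold change -4.54) and 28 in the pair labelled Dhh-Cre (median -6.37, or -6.30 with values under log2 4 set to 4), with 0 higher, beside 33.2% and 30.5% of all genes lower. Between the lines 14 were higher and 1 lower in Sf1-Cre, or 10 and 0 with values under log2 4 set to 4, beside 12.9% and 11.8% of all genes as deposited. Tssk6 and Tssk3, kinases of spermatids, were at least 116-fold and 85.8-fold lower in Sf1-Cre. Actl7b and Izumo1, the latter the sperm protein that binds the egg, were 17.7-fold and 25.4-fold lower there.

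Of 28 spermatocyte genes 21 were lower in Sf1-Cre (median log2 fold change -1.39) and 15 lower and 2 higher in the pair labelled Dhh-Cre (median -1.13), beside the same 33.2% and 30.5% lower. Centred on housekeeping changes 28 and 23 were lower. Rec8, the meiotic cohesin, had log2 fold changes of -3.36 and -2.13, Msh4 of -3.77 and -3.13, and Ybx2 of -2.75 and -3.19, in Sf1-Cre and the other line. Ovol2, under log2 4 in all 6 Cre arrays, was at least 4.47-fold lower in either line. It was tested because control was high, so its fall was largely fixed in advance by the filter.

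Of 15 spermatogonia genes tested 7 were lower and 4 higher in Sf1-Cre (median log2 fold change -0.46, or -0.06 with values under log2 4 set to 4), beside 33.2% lower and 46.6% higher among all genes. In the pair labelled Dhh-Cre 4 were lower and 7 higher (median 0.70), near the 30.5% and 49.1% of all genes. Centred on housekeeping changes 10 and 4 were lower and 3 higher in each line. Gfra1, the receptor subunit of undifferentiated spermatogonia, was at least 5.60-fold lower in either line. Foxo1 (log2 fold changes 1.77 and 1.76) and Zbtb16 (1.19 and 0.76) passed as higher as deposited. Centred on housekeeping levels Foxo1 had 0.08 and 0.06 and Zbtb16 -0.50 and -0.93, and centred on housekeeping changes Foxo1 still passed (0.91 and 0.89) and Zbtb16 did not (0.33 and -0.10). Kit, of differentiating spermatogonia and also of Leydig cells, was at least 3.99-fold higher in Sf1-Cre and passed as higher there under all 3 scalings. In the pair labelled Dhh-Cre it was under log2 4, as in control, so no fold is given; it did not pass as deposited (adjusted p = 0.398) and passed as lower centred on housekeeping levels (adjusted p = 0.00333).

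Genes known to act with members were measured for 19 of 22. In all, 11 of the 19 were lower and 3 higher in Sf1-Cre (median log2 fold change -1.41), beside 33.2% and 46.6% of all genes, and 10 were lower and 4 higher in the pair labelled Dhh-Cre (median -1.04), beside 30.5% and 49.1%. Centred on housekeeping changes 16 and 13 were lower and 3 higher in each line. Zdhhc19, the partner of Tex38, was at least 49.1-fold lower in either line (adjusted p = 8.93e-07 in Sf1-Cre and 1.77e-06 in the pair labelled Dhh-Cre). Tex38 was lower too, but it had only 3 arrays at log2 4 or above. It was tested because control was high, so its fall was largely fixed in advance by the filter. Adam3 and Ace, sperm surface proteins that depend on or interact with Tex101, had log2 fold changes of -2.38 and -3.65 in Sf1-Cre and -4.93 and -3.66 in the other line, beside 0.24 and 0.69 for Tex101 in the 2 lines. Ly6k, another partner of Tex101, did not pass as deposited (0.06 and -0.09).

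The synaptonemal complex genes Sycp1, Syce1 and Syce3 had log2 fold changes of -1.64, -1.52 and -1.99 in Sf1-Cre, and Syce2, the direct partner of Tex12, of -0.98, while Tex12 itself did not pass as deposited. In the pair labelled Dhh-Cre Sycp1, Syce1 and Syce3 also passed as lower (-1.04, -2.02 and -1.37). There Syce2, like Tex12, did not pass (-0.48, adjusted p = 0.0543). Cep55, which Tex14 binds at the germ cell bridge, had -1.41 and -1.27, in the direction of Tex14 in both lines. Ubr2 had log2 fold changes of 2.02 and 2.49 beside the 0.54 and 1.65 of Tex19.1, 0.32 and 0.80 centred on housekeeping levels, and 1.16 and 1.63, both passing, on housekeeping changes. Cyld (1.93 and 2.08) and Rnf31 (1.52 and 2.00) passed as higher in both lines as deposited and centred on housekeeping changes (1.07 and 1.21, and 0.65 and 1.14), and did not centred on housekeeping levels (0.24 and 0.38, and -0.18 and 0.30). Catsper1, of the sperm calcium channel, was 37.9-fold lower in Sf1-Cre and at least 214-fold lower in the other line. As deposited, Meiob, Senp3 and Piwil4 passed in neither line, and Kif23 passed in the pair labelled Dhh-Cre alone (0.55, adjusted p = 0.0277; Sf1-Cre -0.40, adjusted p = 0.0531), where it was -1.14 centred on housekeeping levels and -0.31 on housekeeping changes.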

How the data were processed

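The deposited values are the authors' signal intensities, GCRMA-processed per the submitters' processing notes, 1 column for each of 8 arrays and 45101 probe sets; no software version or genome build is recorded in the sources used here. Log2 of the intensity was taken. Of the probe sets, 34958 had 1 gene symbol in the platform annotation, 932 had several and 9211 had none listed; symbols were updated through the Entrez identifier (34754 matched). The members, roles, stage lists, partner list and naming rule were chosen with earlier results of these data known. Genes were tested with limma 3.58.1 (R 4.3.3; lmFit and eBayes, 3 group means over all 8 arrays, 5 residual degrees of freedom, 2-sided, Benjamini-Hochberg over 13802 genes, adjusted p under 0.05), after a filter of log2 4 in at least 2 arrays; the fit was tested on simulated data. The number of arrays limits the precision. The named genes were all early and broad members, the 12 largest falls and 10 largest rises in Sf1-Cre, the 6 largest each way labelled Dhh-Cre and between the lines, members whose probe sets disagreed, up to 4 genes per stage list by lowest p, and the partners; a few further late members were named after their values were seen. Alternatives were quantile normalization, centring on housekeeping genes by their median level and (added after the data were seen) by their median change, other filters and floors, trended robust moderation, only the 2 groups compared, the mean of a gene's probe sets, symbols not updated, a replicate block, and each array left out in turn. A planned comparison of member proteins was not run. Plots were drawn with matplotlib.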

Additional observations from a re-analysis of the deposited data

Results flagged for a closer look

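Tex264 in the Sf1-Cre group had 1 array apart from the other 3: replicate 4 read 9.15 on the log2 scale, and its gap to the next array was 0.852 of the range of the group, above the critical value for 4 arrays. It was the only one of the 55 tested genes so marked, and chance marks about 1 in 20 groups.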

How the results depend on the processing

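Centring on the median level of the housekeeping genes took members higher to 0 in both lines and the medians to -4.96 (Sf1-Cre) and -6.75 (pair labelled Dhh-Cre); over all genes tested the medians went from 0.34 to -1.36 and from 0.54 to -1.16, and the share of calls that were higher from 58.4% to 17.8% and from 61.7% to 19.06%. Under it the sign turned in Sf1-Cre for Spata13 (-0.24), Spata5l1 (-0.72), Tex101 (-1.46), Tex11 (-1.67), Tex19.1 (-1.15) and Tex264 (-1.69), and in the other line for Spata13 (-0.12), Spata2 (-0.79), Spata5 (-1.43), Spata5l1 (-0.38), Tex10 (-1.69), Tex101 (-1.004), Tex11 (-0.36), Tex12 (-1.60), Tex13b (-0.56), Tex15 (-1.29), Tex19.1 (-0.048), Tex19.2 (-0.98) and Tex264 (-1.35). Quantile normalization turned Tex11 (-0.091) and Tex264 (-0.019) in Sf1-Cre and Tex10 (-0.038) and Tex12 (-0.018) in the other line. The mean of all probe sets turned Tex261 (0.61 and 0.26) and, in the pair labelled Dhh-Cre, Tex10 (-0.10). Centring on the median change of the housekeeping genes, added after the data were seen, gave 1 and 2 members higher, medians of -4.12 and -5.92 and shares of calls that were higher of 34.95% and 39.73%; it turned Tex101 (-0.629), Tex11 (-0.841), Tex19.1 (-0.320) and Tex264 (-0.853) in Sf1-Cre and Spata5 (-0.599), Tex10 (-0.854), Tex101 (-0.172), Tex12 (-0.772), Tex15 (-0.460), Tex19.2 (-0.150) and Tex264 (-0.520) in the other line.

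Leaving out 1 array gave members higher of 5 to 8 in the pair labelled Dhh-Cre (5 without their replicate 2) and of 1 to 20 between the lines, and turned Tex11 (-0.12 to 0.17) and Tex264 (-0.25 to 0.28) in Sf1-Cre and Tex10 (-0.044 to 0.061) and Tex12 (-0.17 to 0.35) in the other line. Members lower in Sf1-Cre numbered 33 and 34 without control replicate 1 or 2, with 51 members tested.

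The replicate numbers did not pair the arrays: deviations of same-numbered arrays correlated between -0.194 and 0.380. With the replicate number as a block, 39 members were lower and 2 higher in Sf1-Cre, 42 and 8 in the other line, and 6 and 17 between the lines; Tex12 (0.10) and Tex264 (-0.15) changed sign in Sf1-Cre. Group sizes of 2 and values under log2 4, which have no order, limit the precision.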
